A study of Mus musculus with 6 samples.

Results

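10 genes of homeostatic, lymphoid and epithelial chemokine signalling were followed in mouse colon: the ligands Cxcl12, Cxcl13, Cxcl14, Cxcl16, Ccl19, Ccl20, Ccl25 and Ccl28 and the receptors Ccr7 and Cxcr4. They were taken by name from the 23462 genes that could be named on the array, and all 10 were found, with 18 probes between them. The colons of 6 male mice, 3 of them controls and 3 with Islr knocked out, were each profiled on 1 single-colour Agilent array. The Islr product is a leucine-rich repeat protein secreted by stromal cells. According to the source field both groups drank 3.5% dextran sulfate sodium (DSS), an agent of epithelial injury and colitis, for 5 days and then recovered for 1 day, whereas the treatment field lists no treatment. The control label gives no strain, and the age of the mice and the construction of the knockout, including whether it was limited to a cell type, were not given in the sources used here. The design text mentions a flow separation step without saying which cells were kept; epithelial, fibroblast, endothelial, B cell and T cell lists each had members well above background.

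Every value below is the log2 of the background-corrected spot signal minus the log2 of that array's 75th percentile, so 0 is the 75th percentile and 1 unit is a doubling. The 75th percentile lay between 6353 and 7110 intensity units in controls and between 4911 and 5820 in knockouts, and 69.4% to 75.4% of spots were well above background. Knockout replicate 1 and control replicate 1 had the most outlier spots, 16% and 13.6%. The Islr probe, the check of the labels, read 1.57, 1.24 and 1.21 in controls and -1.40, -0.93 and -1.31 in knockouts, where the first control value was an outlier spot. Without that spot Islr was 5.42-fold lower in knockouts (difference -2.44, SE 0.21, limma adjusted p = 0.0171). Per the file headers the 3 control arrays occupied slide row 1 and the 3 knockout arrays row 2, so slide row and genotype cannot be told apart.

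Chemokines are small secreted proteins that guide leukocytes through G protein-coupled receptors. Homeostatic members are made without inflammation by stromal cells, lymphoid tissue and epithelium, and they set where lymphocytes and plasma cells settle in the gut wall. Atypical receptors bind the same ligands without signalling for migration, and several of them remove these ligands. In the colon, isolated lymphoid follicles depend on lymphotoxin, the epithelium over them makes Ccl20, and mucosal epithelium makes Ccl28.

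The promoters of 3 genes are shown because their genes span the roles described here: stromal Cxcl12, epithelial Ccl20 and epithelial Ccl28. Each is the 250 bases before the RefSeq start, assembly GRCm38.p6, plus strand, at chr6:117168285-117168534, chr1:83116516-83116765 and chr13:119623569-119623818. Capitals mark a match to the NF-kappaB consensus, searched on both strands with TATAAA and CCAAT; no matches overlapped in these 3 windows.
Cxcl12: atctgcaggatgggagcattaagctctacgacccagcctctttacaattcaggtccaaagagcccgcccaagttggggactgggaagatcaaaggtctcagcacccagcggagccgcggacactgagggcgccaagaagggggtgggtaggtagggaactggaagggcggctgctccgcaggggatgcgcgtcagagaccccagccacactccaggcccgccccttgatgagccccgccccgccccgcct
Ccl20: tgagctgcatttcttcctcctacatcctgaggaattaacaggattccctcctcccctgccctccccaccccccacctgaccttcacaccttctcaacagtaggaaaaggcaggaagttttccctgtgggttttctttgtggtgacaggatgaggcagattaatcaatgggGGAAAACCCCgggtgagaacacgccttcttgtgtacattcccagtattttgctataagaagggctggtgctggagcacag
Ccl28: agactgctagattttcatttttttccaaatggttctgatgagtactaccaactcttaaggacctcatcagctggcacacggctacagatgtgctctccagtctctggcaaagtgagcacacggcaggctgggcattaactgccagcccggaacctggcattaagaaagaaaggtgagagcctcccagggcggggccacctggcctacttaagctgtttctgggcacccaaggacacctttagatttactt
The Cxcl12 window held 14 CpG dinucleotides, the Ccl28 window 4 and the Ccl20 window 2, against a median of 6 over 32851 promoters. The NF-kappaB consensus was matched once in the Ccl20 window, on the minus strand, and in 3.9% of all promoters. None of the 3 windows held TATAAA, found in 12.4% of promoters, or CCAAT, found in 33.8%.

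Of the 10 genes, 9 could be tested, and 0 had a probe past a 5% false discovery rate in limma. Over all 35351 tested probes 3.97% passed, 1.55% higher and 2.42% lower in the knockout. At an unadjusted p under 0.05, 6 of the 17 tested chemokine probes passed (35.3%), against 26.8% of all probes, 12.8% higher and 14.1% lower. The groups did not overlap at 4 of the 15 chemokine probes measured on all 6 arrays (26.7%), 1 higher and 3 lower in the knockout, against 34.5% of all probes, of which 16.5% were higher and 18% lower. At their brightest tested probes 5 of the 9 genes were lower and 4 higher, with a median difference of -0.08. Over all 16451 named genes tested the median was 0.01 and 48.8% were lower. These shares lie near the background, and the values of each gene are given for what they are. Ccl28 came nearest to the threshold on the higher side and Cxcl12 on the lower side.

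**Figure D1:**
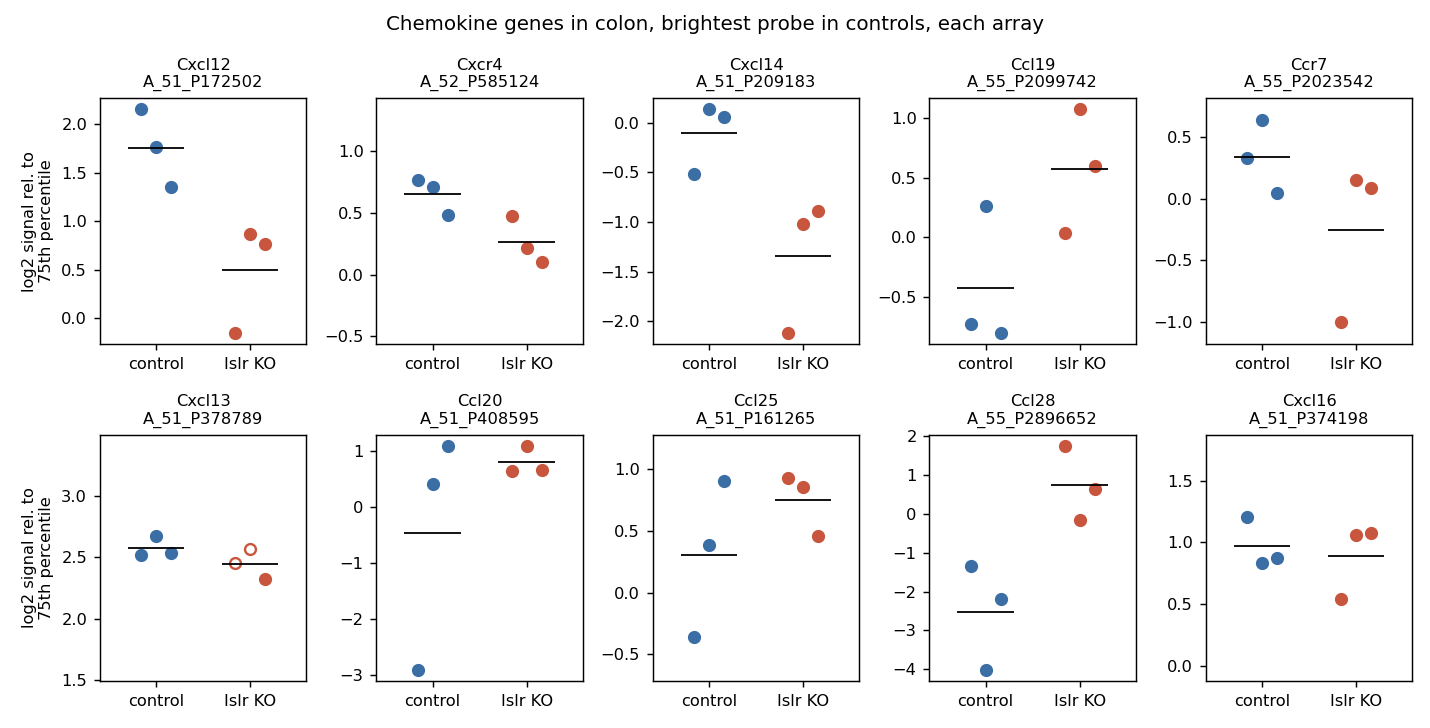
Scaled log2 signal (0 is the array's 75th percentile) for the brightest control probe of each of the 10 chemokine genes, 1 point per mouse (3 controls in blue, 3 Islr knockouts in red, replicates 1 to 3 from left to right), with its own axis in each panel; bars are means of the 3 points and open points are outlier spots. Controls and knockouts do not overlap for Cxcl12, Cxcr4, Cxcl14 and Ccl28, and control replicate 1 stands alone at -2.90 for Ccl20.

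Cxcl12, the stromal ligand that retains leukocytes and stem cells near their niche, had lower values in every knockout than in any control. Its brighter probe (A_51_P172502) read 2.15, 1.77 and 1.35 in controls, listed here and below from replicate 1 to 3, and -0.15, 0.86 and 0.76 in knockouts. Group means were 1.76 ± 0.40 and 0.49 ± 0.56 (SD, n = 3 each), a 2.41-fold difference that did not pass (difference -1.27, 95% interval -2.07 to -0.47, limma adjusted p = 0.0773). A dimmer probe assigned to another Cxcl12 transcript (A_55_P1966204) read -0.49 and -1.04 in the usable controls and -1.72, -1.26 and -1.43 in knockouts. It differed by -0.71 (SE 0.25, limma adjusted p = 0.150). The outlier spot of control replicate 1 read 0.41, and with outlier spots kept the difference was -1.10 (limma adjusted p = 0.116). Both Cxcl12 probes passed with array weighting (adjusted p 0.0214 and 0.0416) and in no other alternative.

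Cxcr4, the signalling receptor of Cxcl12 on leukocytes, was 0.77, 0.71 and 0.49 in controls and 0.48, 0.22 and 0.10 in knockouts at its brighter probe (A_52_P585124). The lowest control and the highest knockout nearly touched, and the difference of -0.39 (95% interval -0.80 to 0.02) did not pass (limma adjusted p = 0.204). With array weighting it passed (adjusted p 0.0403). A dim Cxcr4 probe (A_55_P2745744) was not well above background on knockout replicate 3 and differed by -1.57 with wide spread (SE 0.78, limma adjusted p = 0.250).

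Ackr3, the atypical receptor that captures and removes Cxcl12, fell. It read 0.19, 0.49 and 0.55 in controls and -3.05, -1.79 and -1.48 in knockouts. Even the lowest control lay well above the highest knockout, a 5.72-fold lower signal (difference -2.52, SE 0.40, limma adjusted p = 0.0351). Mmp2, a matrix metalloproteinase that can also cleave Cxcl12, fell as well. Its values were 2.16, 1.54 and 1.40 in controls and -0.27 and -0.30 in knockout replicates 2 and 3, and the outlier spot of knockout replicate 1 read -1.55. Leaving that spot out, Mmp2 was 3.96-fold lower (SE 0.27 on a difference of -1.99, limma adjusted p = 0.0335). Ackr3 lost its call without control replicate 2 (adjusted p 0.0956), control replicate 3 (0.0954) or knockout replicate 3 (0.0620) and with no filter on dim probes (0.0545). Mmp2 lost it without control replicate 2 (0.0892), control replicate 3 (0.0734) or knockout replicate 1 (0.0512) and with no filter on dim probes (0.0515), and could not be tested without knockout replicate 2 or 3. Hmgb1, whose protein binds Cxcl12, and Cd74, a partner of Cxcr4, differed by -0.15 and -0.06 at tested probes and did not pass (limma adjusted p = 0.692 and 0.893). Dpp4, which clips and inactivates Cxcl12, had too few usable spots to be tested.

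Fibroblasts and endothelium make Cxcl12 and Ackr3, and their markers stood lower in the same knockout arrays. Of 8 fibroblast markers 7 were tested and all 7 were lower, with a median difference of -0.73; Pdgfrb was the single gene called. Their mean level ran from 2.20 to 2.34 in controls and from 0.88 to 1.69 in knockouts. Of 8 endothelial markers 7 were tested and all 7 were lower, with a median of -0.99. In limma 0 were called, and 6 of 7 probes had an unadjusted p under 0.05, against 26.8% of all tested probes. The mean level of the 8 endothelial markers ran from 0.22 to 0.44 in controls and from -1.51 to -0.33 in knockouts. Neutrophils carry Cxcr4, and of 6 neutrophil markers tested 5 were called, all lower, whereas the sixth, Csf3r, differed by 0.17 with every knockout above every control and did not pass (limma adjusted p = 0.483). The neutrophil list had mean levels of 0.88 to 1.22 in controls and -2.46 to -1.48 in knockouts. Over all named genes tested, 5% had a called probe. No marker of these 3 lists was below background on all arrays. The part of these cells in the Cxcl12, Cxcr4 and Ackr3 values was not tested. Which cells the flow separation step kept was not given, and fewer cells of a type and less RNA per cell cannot be told apart.

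**Figure D2:**
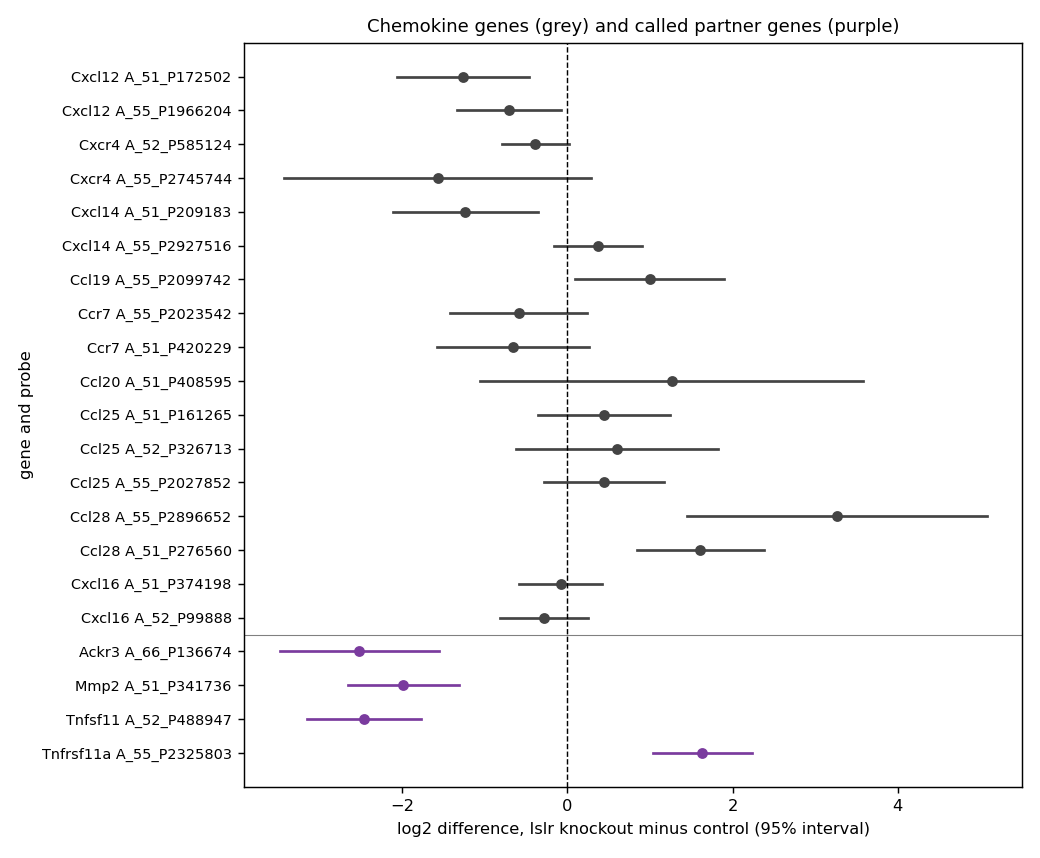
Log2 difference, Islr knockout minus control, with its 95% interval (limma, 3 arrays per group), for the 17 tested chemokine probes in grey and the 4 called partner probes in purple. Every grey interval that excludes 0 belongs to Cxcl12, Cxcl14, Ccl19 or Ccl28, and none of these probes passed the 5% false discovery rate; the 4 purple intervals lie away from 0, at -2.52 for Ackr3, -1.99 for Mmp2, -2.46 for Tnfsf11 and 1.63 for Tnfrsf11a.

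Cxcl14, a chemokine of stroma and epithelium whose receptor is debated, gave different results at its probes. The brighter probe (A_51_P209183) read -0.51, 0.14 and 0.06 in controls and -2.12, -1.02 and -0.89 in knockouts. These groups did not overlap, and the difference of -1.23 (95% interval -2.11 to -0.36) did not pass (limma adjusted p = 0.0952), except with array weighting (0.0168). The second probe (A_55_P2927516), assigned to a predicted transcript, read -2.17, -1.54 and -1.54 in controls and -1.56, -1.36 and -1.21 in knockouts, and its groups overlapped. It differed by 0.37 (95% interval -0.16 to 0.90, limma adjusted p = 0.328). Within an array, the first probe stood 1.64 ± 0.04 above the second in controls and 0.03 ± 0.52 above it in knockouts (SD, n = 3 each). That gap was chosen after its values were seen and is given as a description.

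Ccl19, made by lymphoid stroma and mature dendritic cells to draw Ccr7-bearing T cells and dendritic cells, read -0.73, 0.27 and -0.80 in controls. The knockouts read 0.04, 1.08 and 0.60. Control replicate 2 lay above knockout replicate 1, so the groups overlapped. The difference was 0.99 (95% interval 0.09 to 1.90, limma adjusted p = 0.154), and it ran from 0.74 to 1.34 over the alternatives with no call. The mouse genome carries near-identical Ccl19 copies, which the probe may also capture. Ccl21a, the other Ccr7 ligand, also has near-identical copies. With outlier spots kept it read 2.87, 2.80 and 2.93 in controls and 2.84, 3.02 and 2.84 in knockouts. That difference of 0.03 was within the spread (exact permutation p = 0.7, two-sided). With 3 arrays per group this test cannot give a p under 0.1.

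Ccr7 is the shared receptor of Ccl19 and Ccl21a, and its groups overlapped at both probes. Its brighter probe (A_55_P2023542) was 0.33, 0.64 and 0.04 in controls and -1.003, 0.15 and 0.09 in knockouts. Knockout replicate 1 was the low array, and the other knockouts lay inside the control range. The difference was -0.59 (95% interval -1.42 to 0.23, limma adjusted p = 0.318), and -0.66 at the second probe (adjusted p 0.318). Without knockout replicate 1 these became -0.22 and -0.23. Ackr4, which removes Ccl19, Ccl21 and Ccl25, could not be tested for want of usable spots. With outlier spots kept it differed by 0.37 (limma adjusted p = 0.554). Dendritic cell markers were mixed, with 4 of 7 tested lower, a median of 0.00 and 0 called in limma (4 of 9 probes at an unadjusted p under 0.05). T cell markers had 6 of 7 lower, a median of -0.24 and 0 called in limma (0 of 10 probes at an unadjusted p under 0.05). Of 5 lymphatic endothelial markers 4 were tested, all lower, with a median of -0.86 and 0 called in limma (3 of 5 probes at an unadjusted p under 0.05). For all 3 lists the share to compare is 26.8% of all tested probes at an unadjusted p under 0.05.

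Cxcl13, which builds B cell follicles by drawing cells with Cxcr5, gave nearly the same bright signal on every array. It read 2.52, 2.67 and 2.54 in controls and 2.45, 2.57 and 2.32 in knockouts. Spots of knockout replicates 1 and 2 were outlier spots, so the gene could not be tested without them. With them kept, the difference was -0.13 (SE 0.15, limma adjusted p = 0.615, exact permutation p = 0.3, two-sided). The smallest p that permutation can give here is 0.1. Of 6 follicular dendritic cell markers, the cells that make Cxcl13 in follicles, 4 were lower, with a median of -0.16 and 0 called in limma. At an unadjusted p under 0.05, 2 of 9 probes passed, against 26.8% of all tested probes.

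Unlike Cxcl13, Cxcr5 varied strongly from mouse to mouse within each genotype. It read -1.24, 1.21 and 1.14 in controls and -0.14, 1.03 and -0.84 in knockouts. Low values came from control replicate 1 and knockout replicates 1 and 3. The B cell list had its lowest mean levels on the same arrays: -1.42, 0.58 and 0.54 in controls and -0.64, 0.28 and -1.30 in knockouts. Lymphotoxin genes, which drive follicle formation, were also lowest there. Lta was -1.67, 0.38 and 0.61 in controls and -0.51, 0.76 and -0.70 in knockouts. Ltb was 1.23, 2.34 and 2.41 in controls and 2.08, 2.50 and 1.54 in knockouts. Between genotypes Cxcr5 differed by -0.35, Lta by 0.08 and Ltb by 0.04, and none passed (limma adjusted p = 0.802, 0.952 and 0.955). All 8 B cell markers were lower at their brightest tested probes, by a median of -0.51, and 0 were called in limma. At an unadjusted p under 0.05, 0 of 10 probes passed, against 26.8% of all tested probes. Cd22 was flat at that probe (difference -0.00068, limma adjusted p = 0.999). The Ms4a1 difference of -1.28 left out the outlier spots of control replicate 1 (-0.01) and knockout replicate 1 (0.78). How much B cell tissue each sample held was not tested.

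**Figure D3:**
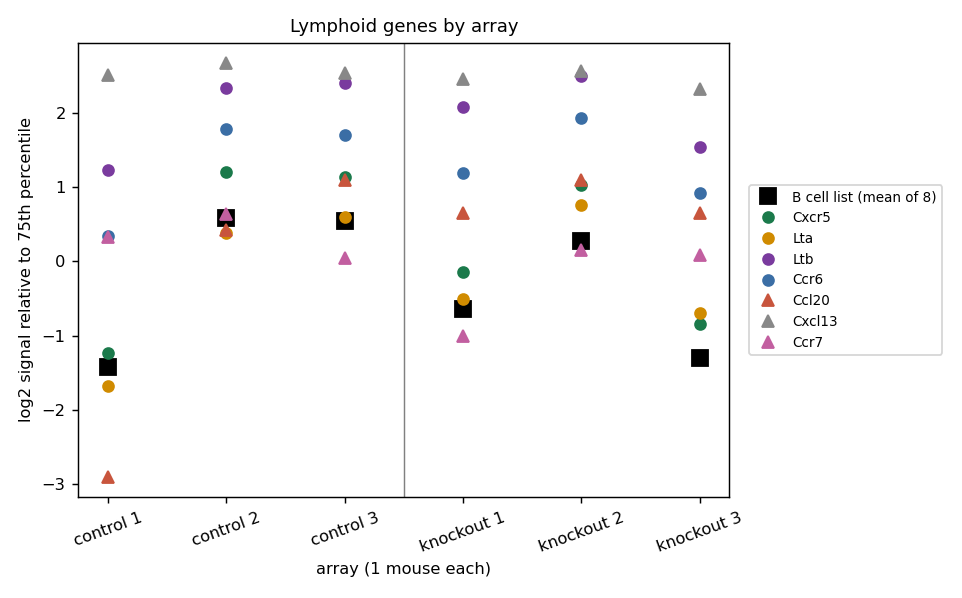
Scaled log2 signal (0 is the array's 75th percentile) on each of the 6 arrays (3 controls left of the line, 3 Islr knockouts right) for the mean of 8 B cell markers (squares), 4 partner genes (circles) and 3 chemokine genes (triangles), outlier spots kept. Cxcr5, Lta, Ltb, Ccr6 and the B cell list are lowest on control replicate 1 and knockout replicates 1 and 3, whereas Cxcl13 stays between 2.32 and 2.67.

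Tnfsf11, the stromal cytokine RANKL that acts upstream of follicle-associated epithelium, fell, and its receptor gene Tnfrsf11a rose. At the tested probe Tnfsf11 read -1.34, -1.20 and -1.42 in controls and -4.43, -3.45 and -3.46 in knockouts, all well above background. The control values sat within a narrow band far above every knockout, a 5.50-fold lower signal (difference -2.46, SE 0.29, limma adjusted p = 0.0229). A brighter Tnfsf11 probe could be tested only with outlier spots kept and then also passed (difference -2.51, limma adjusted p = 0.0257). Tnfrsf11a read 0.04, -0.67 and -0.60 in controls and 1.47, 0.93 and 1.28 in knockouts. Every knockout was above every control, a 3.10-fold higher signal (difference 1.63, SE 0.25, limma adjusted p = 0.0329). A brighter Tnfrsf11a probe could likewise be tested only with outlier spots kept and did not pass (difference 1.46, limma adjusted p = 0.0520). Tnfsf11 lost its call without control replicate 2 (adjusted p 0.0673), control replicate 3 (0.0649) or knockout replicate 3 (0.0555). Tnfrsf11a lost it when control replicate 2 (0.0947) or 3 (0.0914) or knockout replicate 1 (0.0737) or 3 (0.0877) was left out and with no filter on dim probes (0.0509).

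Together these 4 genes were the calls among 31 partner genes, of which 28 had a named probe and 24 were tested: 3 fell, 1 rose and 20 did not pass. That is 16.7% of those tested, against 5% of all named genes. The partner list was chosen with earlier results of these data known, so this share is a description only. Lymphotoxin receptor and noncanonical NF-kappaB genes did not pass. Ltbr, the lymphotoxin receptor, differed by 0.08, Relb by -0.04 and Map3k14 by -0.39 at their brightest probes (limma adjusted p = 0.818, 0.887 and 0.215). A dimmer Relb probe was lower in every knockout than in any control, by -0.23, and did not pass (limma adjusted p = 0.324). Nfkb2 had lower values in every usable knockout at both probes, by -0.53 and -0.48 (adjusted p 0.152 and 0.130). Tnfsf14, a further ligand of Ltbr, differed by -1.09 (adjusted p 0.0895). The atypical receptors Ackr1 and Ackr2 also stood lower, without passing at the settings used here. Ackr1, which binds chemokines on venules, differed by -1.31 and -1.34 at its probes (adjusted p 0.0668 and 0.0669). Both Ackr1 probes passed under normexp with quantile normalization (adjusted p 0.0439 and 0.0457), median scaling (0.0474 and 0.0437) and array weighting. Ackr2, which degrades inflammatory chemokines, differed by -0.99 (adjusted p 0.0512). It passed under normexp with quantile normalization (adjusted p 0.0257), median scaling (0.0337), quantile normalization (0.0383), outlier spots kept (0.0479), the series value table (0.0476) and array weighting. Madcam1, the venule address for gut-homing lymphocytes, differed by -0.90 (adjusted p 0.414), and Ccrl2 by -0.21 (adjusted p 0.668). Nfkb2 passed with array weighting, and Tnfsf14 with array weighting and without knockout replicate 2 (adjusted p 0.0498).

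**Figure D4:**
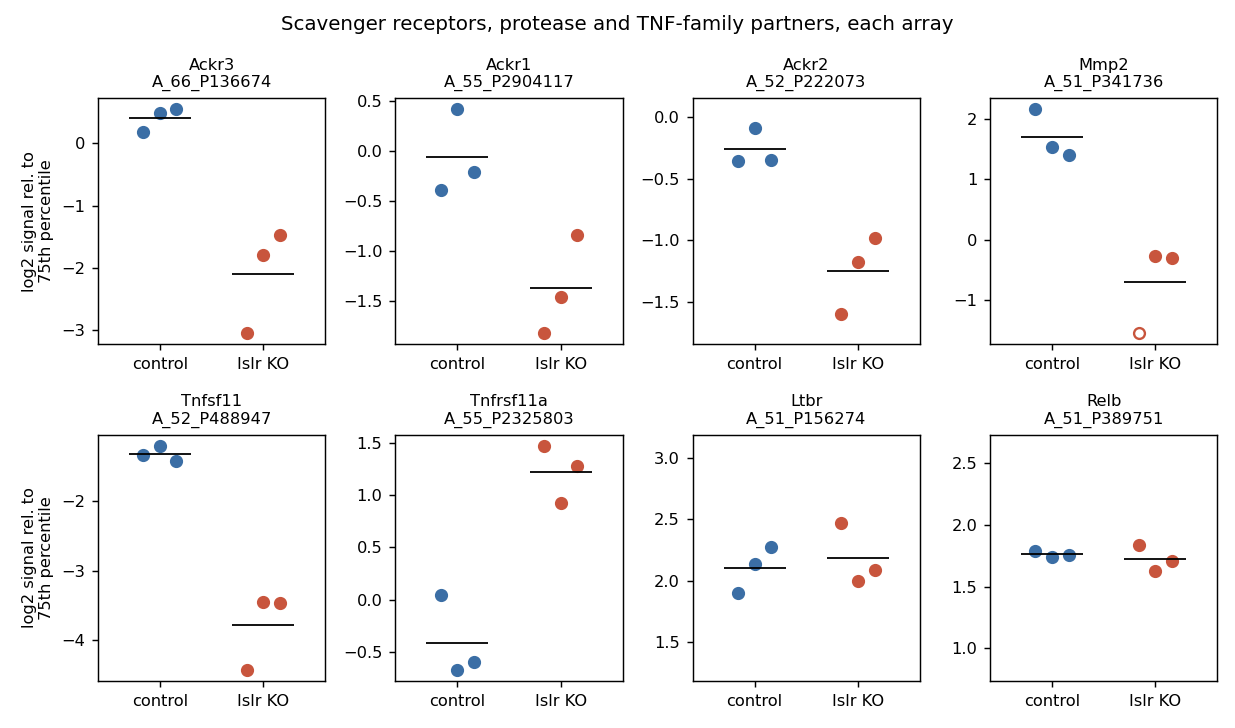
Scaled log2 signal (0 is the array's 75th percentile) for 8 partner genes, 1 point per mouse (3 controls in blue, 3 Islr knockouts in red, replicates 1 to 3 from left to right), with its own axis in each panel; bars are means of the 3 points and open points are outlier spots. At the probes shown, groups do not overlap for Ackr3, Ackr1, Ackr2, Mmp2, Tnfsf11 and Tnfrsf11a, and they overlap for Ltbr and Relb.

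Ccl28, the mucosal epithelial chemokine that draws IgA plasma cells through Ccr10, showed the widest gap of the 10 genes. Its brighter probe (A_55_P2896652) had signals of 2512, 439 and 1430 intensity units in controls and 16622, 5201 and 9018 in knockouts. After scaling these were -1.34, -4.02 and -2.19 against 1.76, -0.16 and 0.64. Every knockout exceeded every control, while control replicate 2 was far below the other controls. The means were -2.52 ± 1.37 and 0.75 ± 0.96 (SD, n = 3 each), a 9.60-fold higher signal in knockouts that did not pass (difference 3.26, 95% interval 1.45 to 5.08, limma adjusted p = 0.0625). The second probe (A_51_P276560) read -3.02, -3.80 and -3.03 in controls and -1.88 and -1.47 in knockout replicates 2 and 3, and the outlier spot of knockout replicate 1 read -0.41. It was 3.05-fold higher (difference 1.61, SE 0.31, limma adjusted p = 0.0529).

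At least 1 Ccl28 probe passed in 6 of 14 alternatives, and both probes kept the direction in every fit they entered. The second probe passed under normexp with quantile normalization (adjusted p 0.0457), median scaling (0.0494), outlier spots kept (0.0465), the series value table (0.0465) and array weights (0.0113). The brighter probe passed under normexp with quantile normalization (0.0495), array weights (0.0113) and without control replicate 1 (0.0458). Over all alternatives adjusted p ran from 0.0113 to 0.144 for the brighter probe and to 0.112 for the second. Ccr10 differed by -0.29 and did not pass (limma adjusted p = 0.509). Ccr3, the eosinophil receptor for Ccl28, was below background on all 6 arrays. Of 6 plasma cell markers 4 were tested, all lower, with a median of -1.20, and 2 were called, Tnfrsf17 and Derl3. Over all named genes tested, 5% had a called probe.

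Epithelial markers stood higher in the same arrays as Ccl28. Of 8 epithelial markers 6 were tested and all were higher, with a median of 1.00 and 0 called in limma (1 of 6 probes at an unadjusted p under 0.05). Their mean level ran from 1.10 to 2.74 in controls and from 3.03 to 3.40 in knockouts. Of 6 colonocyte and goblet cell markers 5 were tested and all were higher, with a median of 1.58 and 0 called in limma (2 of 6 probes at an unadjusted p under 0.05). Their mean ran from 0.10 to 2.60 in controls and from 2.91 to 3.38 in knockouts. Of all tested probes 26.8% had an unadjusted p under 0.05. Both the epithelial and the colonocyte and goblet cell list were lowest on control replicate 2, the array lowest for Ccl28. The part of epithelial content in the Ccl28 values was not tested.

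Ccl20, made by epithelium over lymphoid follicles to draw Ccr6-bearing B cells and dendritic cells, showed no gap between genotypes. It read -2.90, 0.42 and 1.10 in controls and 0.65, 1.10 and 0.66 in knockouts. Control replicate 1 alone was low, and the other controls spanned the knockout values. The difference of 1.26 (95% interval -1.06 to 3.58, limma adjusted p = 0.443) shrank to 0.04 without control replicate 1. Ccr6 was also lowest on that array, with 0.34, 1.78 and 1.70 in controls and 1.19, 1.94 and 0.92 in knockouts. It differed by 0.08 between genotypes (limma adjusted p = 0.930). Of 6 markers of M cells and follicle-associated epithelium all were tested, 3 were lower and 3 higher, with a median of -0.25; Tnfaip2 was called at 2 probes, both lower. Their mean level was -0.71, 0.28 and 0.56 in controls and -0.46, 0.17 and -0.53 in knockouts. Over all named genes tested, 5% had a called probe.

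Ccl25, best known as the small intestinal chemokine that draws Ccr9-bearing T cells, was measured by 3 probes. The brightest (A_51_P161265) read -0.36, 0.38 and 0.91 in controls and 0.93, 0.86 and 0.46 in knockouts, so the groups overlapped and control replicate 1 was lowest. The second probe, to the same transcript, read -2.81, -1.44 and -0.72 in controls and -0.79, -0.99 and -1.39 in knockouts and also put control replicate 1 lowest. The remaining probe, to a non-coding Ccl25 transcript, had signals of 183 to 403 intensity units. The differences were 0.44, 0.60 and 0.44, and none passed (limma adjusted p = 0.439, 0.491 and 0.390). Without control replicate 1 the first 2 became 0.10 and 0.02. Ccr9 differed by -0.16 (95% interval -0.76 to 0.44, limma adjusted p = 0.712).

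Cxcl16, a membrane-bound chemokine and scavenger receptor of epithelium and macrophages, was the member with the smallest difference. It read 1.21, 0.83 and 0.88 in controls and 0.54, 1.06 and 1.07 in knockouts at the brighter probe. Knockout replicate 1 was the low array, and the other knockouts lay within the control range. The difference was -0.08 (95% interval -0.58 to 0.42, limma adjusted p = 0.837), with 0.10 without knockout replicate 1. The second probe differed by -0.28 (95% interval -0.82 to 0.25, limma adjusted p = 0.450). Its receptor gene Cxcr6, carried by T cells and innate lymphoid cells, read -0.62, -0.70 and -0.64 in controls and -0.22 and -0.28 in knockout replicates 2 and 3. That difference of 0.40 left out the outlier spot of knockout replicate 1 (-0.38) and did not pass (limma adjusted p = 0.187), except with array weighting. A dimmer Cxcr6 probe could be tested only with outlier spots kept. It differed by 0.95 (limma adjusted p = 0.243), with control replicate 3 low at -2.31. Adam10 and Adam17, the proteases that shed Cxcl16, differed by 0.25 and 0.33 at their brightest tested probes (limma adjusted p = 0.480 and 0.273). That Adam17 probe was dim. A brighter Adam17 probe could be tested only with outlier spots kept and differed by -0.05 (limma adjusted p = 0.899).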

How the data were processed

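Colon RNA of 6 mice was hybridised to 1 array each (design 074809), read with Agilent Feature Extraction 11.5.1.1, per the file headers; the submitters' processing notes name version 10.7. The labels name Cy3 and a green column, whereas each file held a red channel, which was used. The deposited processed signal is a linear intensity, background-subtracted and detrended within an array and not scaled between arrays, per the file headers. The deposited series value table holds the same intensity averaged over spots (log2 correlation of at least 0.9999993).

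The log2 intensity minus the log2 of each array's 75th percentile was used, with outlier spots missing. A probe was tested if well above background on all 3 arrays of a group with at least 2 usable values in each. This left 35351 of 56605 probes. Genotype was tested with lmFit and eBayes (limma 3.58.1, R 4.3.3), two-sided, Benjamini-Hochberg adjusted over all tested probes at 5%. The procedure was tested on simulated data. Probes were named through RefSeq accessions of assembly GRCm38.p6 (59.7% named); promoters are RefSeq's. The files place probes on mm9, so no probe coordinates are given.

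The named genes were Islr, the 10 chemokine genes, partner genes with a call and members' receptors or ligands; the brightest tested probe stood for a gene in list medians, and lists were only summarised; 1 marker list is not reported here. The members and lists were chosen with earlier results of these data known, and the remaining partner genes were named after their values were seen. Alternatives were normexp (offset 50, on median spot and background signals) with quantile normalization, quantile or median scaling, outlier spots kept, 2 other filters, array weights, the value table, and each array left out. Nothing says whether the arrays of a group came from separate litters; each is 1 mouse, and the number of arrays limits the precision.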

Additional observations from a re-analysis of the deposited data

How the results depend on the processing

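The count of called chemokine genes, 0 with the settings of the report, became 1 (Ccl28) under normexp with quantile normalization, median scaling, outlier spots kept, the series value table and without control replicate 1. It became 4 with array weights (Ccl28, Cxcl12, Cxcl14 and Cxcr4) and ran from 0 to 1 over the 6 fits that left out 1 array. The count of called partner genes, 4 in the report, was 6 under normexp with quantile normalization and under median scaling (Ackr1 and Ackr2 added), 5 under quantile normalization, outlier spots kept and the series value table (Ackr2 added), 1 with no filter on dim probes, 9 with array weights and 0 to 4 with 1 array left out: 0 without control replicate 2, control replicate 3 or knockout replicate 3, and 2 without knockout replicate 1. Over all probes, 1403 calls became 2773 under normexp with quantile normalization, 2249 with median scaling, 2185 with quantile normalization, 484 with no filter on dim probes, 9292 with array weights and 40 to 2114 with 1 array left out. The cause of these changes was not tested. Some settings also used fewer arrays or tested more probes. Islr differed by -2.39 without knockout replicate 3 (adjusted p 0.0580), where it lost its call. Islr could be tested in 4 of the 6 fits with 1 array left out, which ran from -2.58 to -2.345; without control replicate 2 or 3 too few usable values remained. The Cxcl16 difference at its brighter probe turned positive with array weights (0.14) and when replicate 1 of the controls (0.04) or of the knockouts (0.095) was left out, and the fits with 1 array left out ran from -0.17 to 0.095; no other chemokine probe changed direction. No paired analysis was possible because the labels do not pair control with knockout mice. The replicate numbers follow the order of the samples and link no control to a knockout. No scaling moved the median of all tested probes by more than 0.03.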

Other observations

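Markers of macrophages and of smooth muscle differed in opposite directions, with no gene passing the threshold. Of 6 macrophage markers 5 were tested, all lower, with a median of -0.78 and 0 called in limma (6 of 8 probes at an unadjusted p under 0.05). Of 6 smooth muscle markers 5 were tested, all higher, with a median of 0.36 and 0 called in limma (2 of 8 probes at an unadjusted p under 0.05). Their mean level ran from 2.73 to 3.04 in controls and from 3.20 to 3.43 in knockouts. Of all tested probes 26.8% had an unadjusted p under 0.05.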
